A study of Homo sapiens with 1 sample.

Results

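The miR-148 and miR-152 family was read on 1 microRNA (miRNA) array of DLD-1 cells. The members were the mature miRNAs of the 3 hairpins miR-148a, miR-148b and miR-152, taken by name among the human miRNA probes of the array, and all 6 (a 5p and a 3p arm of each hairpin) were present among the 2549 miRNAs measured. DLD-1 is an established human colorectal carcinoma line, and the cells had received an siRNA that served as negative control (labelled si-NC, n = 1 array). The study asked how depletion or overexpression of the circular RNA circLONP2 changed miRNA levels, and neither the knockdown nor the overexpression arrays were analysed here. No comparison between groups was therefore made, no p-value was computed, and every error below is technical, taken over replicate spots or as the software of the scanner gives it. On this array all 8 epithelial markers were detected, against 5 of 14 markers of other tissues and 44.4% of all miRNAs measured. The 5 were miR-142-3p, miR-223-3p and miR-451a of blood, miR-126-3p of vessels and miR-9-5p of neural tissue, while the 3 muscle markers were not detected. Their signals were 695, 25.4, 21.5, 123 and 22.1 in that order. Of the epithelial markers, the intestinal miR-192-5p, miR-194-5p and miR-215-5p had signals of 832, 319 and 798. Those of the miR-200 family, which marks epithelia in general, ran from 2576 (miR-200c-3p) to 9249 (miR-200b-3p). The signal of miR-142-3p of blood thus lay within the range of the intestinal markers. The part of RNA from other cells in the family's signals was not tested.

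A miRNA is cut from a hairpin precursor. One arm is usually loaded into an Argonaute protein as the guide, which finds target mRNAs by its seed, and the other, the passenger, is mostly degraded. In this family the 3p arm is known as the guide. Its members are known to repress DNMT1, the maintenance DNA methyltransferase, and miR-148a and miR-152 have been studied as growth-restraining miRNAs in gastrointestinal cancers.

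Sequences of 5 of the 6 members were found in RefSeq (GRCh38.p14), and they are shown because the shared seed is what makes the 3 hairpins a family. Each is written 5′ to 3′ with the seed, bases 2 to 8, in capitals. The 3p arms were as follows.
hsa-miR-148a-3p: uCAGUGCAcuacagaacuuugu
hsa-miR-148b-3p: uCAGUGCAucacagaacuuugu
hsa-miR-152-3p: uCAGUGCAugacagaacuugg

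The 3p arms all began with U and carried the seed CAGUGCA, which no other of the 2370 mature miRNAs of the table had. Counted from 1 at the 5′ end, miR-148b-3p differed from miR-148a-3p by 2 substitutions, C9U and U10C, and was identical to it from base 11 to base 22. The sequence of miR-152-3p, 1 base shorter, differed from miR-148b-3p by C10G and U20G and from miR-148a-3p by C9U, U10G and U20G. The differences thus lay outside the seed. The probe sequences were not used here, and how far the probes of 1 member take up the RNA of another was not tested.

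The 5p arms, shown to set their seeds beside those of the 3p arms, were as follows.
hsa-miR-148b-5p: aAGUUCUGuuauacacucaggc
hsa-miR-152-5p: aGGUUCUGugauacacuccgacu

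These arms began with A, matched at 18 of 22 positions and differed by A2G, U10G, A19C and G21A from miR-148b-5p to miR-152-5p. The A2G change falls in the seed, so the pair did not share one. The seed of miR-148b-5p was shared with miR-6874-3p, which was not detected, with 0 of 20 spots well above background. Mature hsa-miR-148a-5p is given by its signal alone.

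The family comes from 3 separate loci. MIR148A (chr7:25949919-25949986, minus strand, GRCh38.p14) lies within the span of the long non-coding RNA gene LOC105375199, MIR148B (chr12:54337216-54337314, plus strand) within that of COPZ1, and MIR152 (chr17:48037161-48037247, minus strand) within that of COPZ2. COPZ1 and COPZ2 are paralogs that encode the zeta subunits of the coatomer, the coat of vesicles that shuttle between Golgi and endoplasmic reticulum. The gene table gives neither strand nor exons of these genes. Another miRNA gene, MIR10226, lay within 10 kb of MIR152, and none lay within 10 kb of MIR148A or MIR148B. The hairpins of MIR148B and MIR152 are shown with both mature arms in capitals, to place the arms that the signals below refer to.
MIR148B hairpin: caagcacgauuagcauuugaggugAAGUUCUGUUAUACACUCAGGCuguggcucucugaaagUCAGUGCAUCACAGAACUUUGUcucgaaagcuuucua
MIR152 hairpin: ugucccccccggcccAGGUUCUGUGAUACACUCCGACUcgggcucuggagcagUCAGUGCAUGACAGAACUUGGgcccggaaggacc

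In both hairpins the capitals on the left are the 5p arm and those on the right the 3p arm, with the loop between them. Each member was read by 20 spots on the array. The 3p arms and miR-152-5p had 2 probes of 10 spots, and miR-148a-5p and miR-148b-5p had 4 probes of 5 spots. Spot values are background-subtracted intensity. The 1000 negative control spots centred on 0.0894 and reached 16.1 at their 99th percentile. The scanner software flagged 1.40% of these and 34.3% of the miRNA spots as well above background. No spot of the array was saturated.

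The scanner software called all 6 members detected, where it called 44.4% of all miRNAs on the array detected. The call asks that at least 1 probe exceed 3 times its error. The 3 hairpins therefore had both arms detected, which held for 28.6% of the 810 hairpins with a 5p and a 3p arm on the array. Of the 810, another 285 had 1 arm detected and 293 had none.

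The members split by arm. The total gene signal, which sums the signals of the probes past that limit, was 1279.6 ± 90.6 (error from the scanner software) for hsa-miR-148a-3p, 169 ± 12.2 for hsa-miR-148b-3p and 73.8 ± 5.60 for hsa-miR-152-3p. Every one of the 20 spots of each 3p arm was well above background. For the 5p arms it was 8.39 ± 0.697 for hsa-miR-148a-5p, 7.64 ± 0.628 for hsa-miR-148b-5p and 3.28 ± 0.716 for hsa-miR-152-5p, with 14, 15 and 1 of 20 spots well above background. The lowest 3p signal lay above the highest 5p signal, so the arms did not overlap. Over the 1133 detected miRNAs the median signal was 12.5, with quartiles of 4.99 and 52.0, so the 3p arms were above the upper quartile and the 5p arms below the median.

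**Figure D1:**
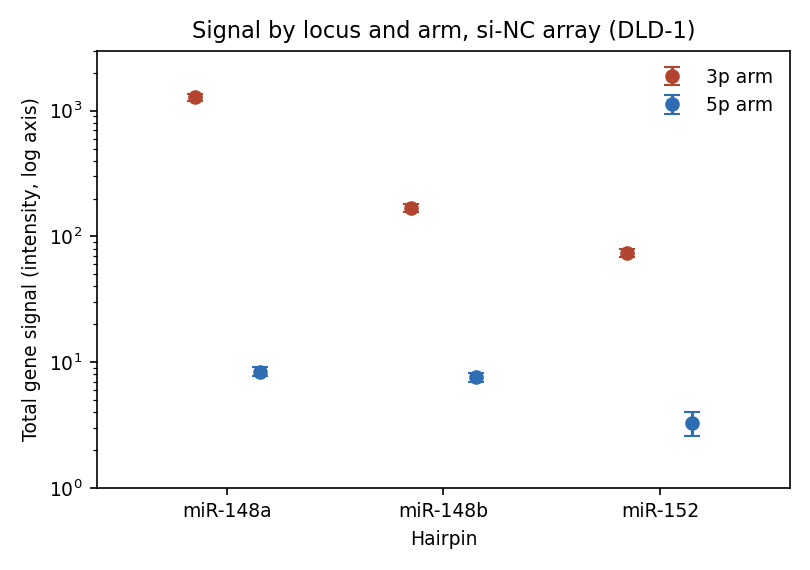
Total gene signal (intensity, log axis) of the 3p arm (red) and the 5p arm (blue) of each hairpin on the si-NC array; bars are the error given by the scanner software. The 3p signals run from 73.8 to 1279.6 and the 5p signals from 3.28 to 8.39.

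Among the guide arms the order by signal was miR-148a-3p, miR-148b-3p and miR-152-3p, and both steps were wider than the errors (differences of 1110.5 ± 91.4 and 95.3 ± 13.5). Of the detected miRNAs, 94.9% had a lower signal than miR-148a-3p, 86.5% than miR-148b-3p and 78.6% than miR-152-3p. Among the passenger arms miR-148a-5p and miR-148b-5p differed by 0.749 ± 0.938, which is within their errors, and miR-152-5p lay 4.35 ± 0.952 under miR-148b-5p. Different probes take up their targets with different strength, so these are orders of signal and not of abundance.

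The spots of the guide arms were tight. The first probe of miR-148a-3p ran from 3290.5 to 3650.2 with a median of 3559.0 over its 10 spots, and the second from 3315.6 to 3766.8 with a median of 3453.4. These probes overlapped almost wholly. For miR-148b-3p the first probe ran from 522 to 589 (median 559.7) and the second from 352 to 377 (median 372), with no overlap. For miR-152-3p the order was turned, with 121 to 137 (median 128) at the first probe and 248 to 294 (median 277) at the second, again with no overlap. The lowest of these 60 spots was 121, far over the 16.1 that bounds 99% of negative control spots.

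The passenger arms lay nearer to background than the guide arms, and how near differed by probe. At the 4 probes of miR-148a-5p, taken in order of probe number, the first gave spots of 0.798, 4.26, 6.54, 8.53 and 11.1, and none was well above background. The second gave 12.5, 14.0, 14.9, 18.2 and 19.6, and 4 of them were well above background. The third gave 17.9, 18.1, 20.8, 24.4 and 39.9, the last flagged as an outlier, and the fourth 52.8, 54.4, 54.9, 56.8 and 59.0. The fourth probe alone carried 60.6% of the total signal of this arm.

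The passenger arm of miR-148b behaved in the same order. Its first probe gave 1.82, 2.27, 2.32, 4.66 and 5.31, with no spot well above background. The second gave 14.4, 14.7, 16.0, 16.8 and 19.5, the third 24.8, 25.9, 26.3, 27.8 and 30.2, and the fourth 27.5, 39.2, 43.1, 44.0 and 47.4. All 15 spots of these 3 probes were well above background, while 2 of 5 spots of the second probe of this arm, and of miR-148a-5p, exceeded 16.1. The fourth probe held 48.2% of the signal of this arm.

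The passenger arm of miR-152 was the weakest member. Its probes ran from 4.54 to 14.8 (median 8.48) and from 6.58 to 11.97 (median 9.002) over 10 spots each. No spot reached 16.1, and the 1 spot of 14.8 that was well above background was also flagged as an outlier, so 0 of the remaining 19 were. The signals of its probes were 3.12 and 3.36 times their error, just past the limit of 3 that makes a call. In the normalized values deposited by the authors it had 2.32 on the log2 scale, a value it shared with 282 other detected miRNAs next to the floor of the table. The other members had deposited log2 values of 10.0024 (miR-148a-3p), 7.45 (miR-148b-3p), 6.28 (miR-152-3p), 3.12 (miR-148a-5p) and 2.95 (miR-148b-5p), in the order of their signals.

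**Figure D2:**
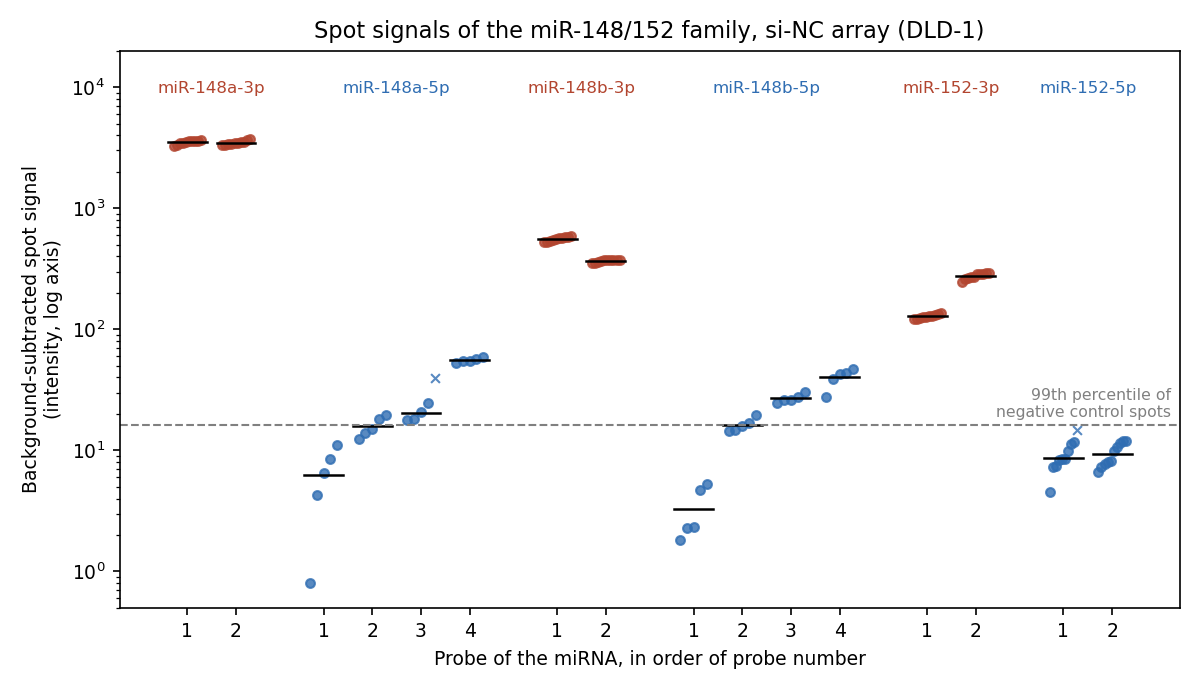
Background-subtracted spot signal (intensity, log axis) of every spot of the 6 members, by probe in order of probe number; spots of a probe are drawn from low to high, crosses are outlier spots, black lines are probe means without them, and the dashed line is the 99th percentile of negative control spots (16.1). All 3p spots (red) lie above the line, all miR-152-5p spots lie below it, and the probes of miR-148a-5p and miR-148b-5p (blue) rise from probe 1 to probe 4 across it.

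A stricter rule, under which each probe needed 50% or more of its spots flagged well above background, was met by the 3 guide arms and by none of the passenger arms, where it was met by 29.4% of all miRNAs. The rule that only 1 probe meet this was passed by 37.9% of all miRNAs and by every member but miR-152-5p.

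Arm balance was read next, as the log2 difference of total gene signal, 3p minus 5p. It was 7.25 ± 0.16 (error carried through from the scanner software) for miR-148a, 4.47 ± 0.16 for miR-148b and 4.49 ± 0.33 for miR-152. As ratios of signal these were 153, 22.1 and 22.5, of which the last rests on a 5p signal at background. The difference of miR-148a was larger than that of miR-148b by more than the errors. The 5p arm held 0.651% of the summed signal of its hairpin for miR-148a, 4.32% for miR-148b and 4.26% for miR-152. Since different probes read the arms, these describe signals, and a ratio of molecules cannot be read from them. For miR-152 the 5p signal was not well above background, so its difference is only a bound and was not ordered against the others. With the lowest probe well above background on the array (11.7) in place of the 5p signal, the 3p signal, 188 as the mean over its probes on the log2 scale, was 16.04-fold higher. That figure holds for this mean only, since the 3p probes themselves had means of 128 and 276. Background correction by normexp with its offset of 50 shrank the differences to 5.44 for miR-148a, 2.71 for miR-148b and 1.96 for miR-152, all still with the 3p arm brighter. With the brightest probe of each arm only, they were 5.98 for miR-148a, 3.79 for miR-148b and 4.88 for miR-152.

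All 3 hairpins had the brighter 3p arm, as had 46.1% of the 232 hairpins with both arms detected. Over those 232 hairpins the median difference was -0.33, with quartiles of -2.63 and 2.23. By size in either direction the median was 2.50, and 22 hairpins had a larger difference than miR-148a and 59 than miR-148b. The arm balance of miR-148a was thus larger in size than that of 90.1% of these hairpins, and that of miR-148b larger than that of 74.1%.

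**Figure D3:**
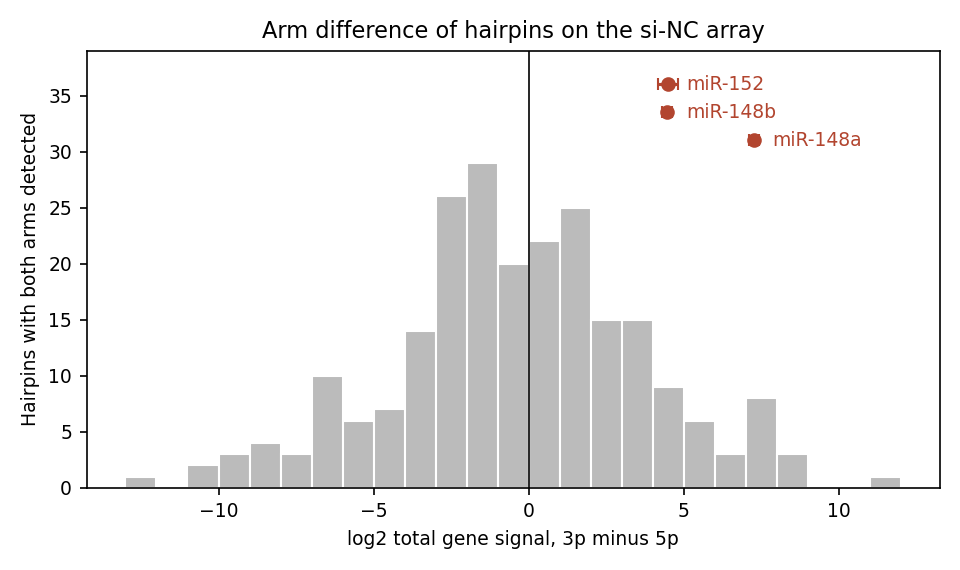
Histogram of the log2 difference in total gene signal, 3p minus 5p, over the 232 hairpins with both arms detected on the si-NC array (grey, number of hairpins), with the 3 family hairpins as red points at their own values; bars are the carried-through error and the height of the points has no meaning. The family lies at 4.47, 4.49 and 7.25, right of 0, where the value of miR-152 rests on a 5p signal at background.

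Agreement between probes was taken as the log2 difference of the brightest and the dimmest probe, among probes with 50% or more of their spots flagged well above background. For miR-148a-3p it was 0.012 ± 0.026 (SE from replicate spots), with probe means of 3512 ± 134 and 3484 ± 150 (SD, 10 spots each), so the probes differed by less than their error. For miR-148b-3p it was 0.60 ± 0.02, with means of 556 ± 23.7 and 368 ± 9.22, and for miR-152-3p 1.11 ± 0.03, with means of 128 ± 5.52 and 276 ± 15.4. Both differences were many times their error. The passenger arms of miR-148a and miR-148b had 3 such probes each, and the difference was 1.81 ± 0.12 for miR-148a-5p and 1.31 ± 0.15 for miR-148b-5p. No probe of miR-152-5p qualified, and without that filter its probes differed by 0.12 ± 0.16, less than their error. With normexp and its offset the passenger differences shrank to 0.62 for miR-148a-5p and 0.43 for miR-148b-5p. With dim probes let in, they widened to 3.15 and 3.62.

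Of the 5 members that could be measured, 3 differed by 1 or more between probes, which held for 19.6% of the 800 detected miRNAs with several such probes. Over those miRNAs the median difference was 0.35. It was 0.32 for the 682 miRNAs with 2 such probes, the number the guide arms had, and 0.51 for the 61 with 3, the number these passenger arms had. A difference of 1 or more was found in 101 of those 682 and in 20 of those 61. The members past 1 were miR-152-3p with 2 such probes and the passenger arms of miR-148a and miR-148b with 3.

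**Figure D4:**
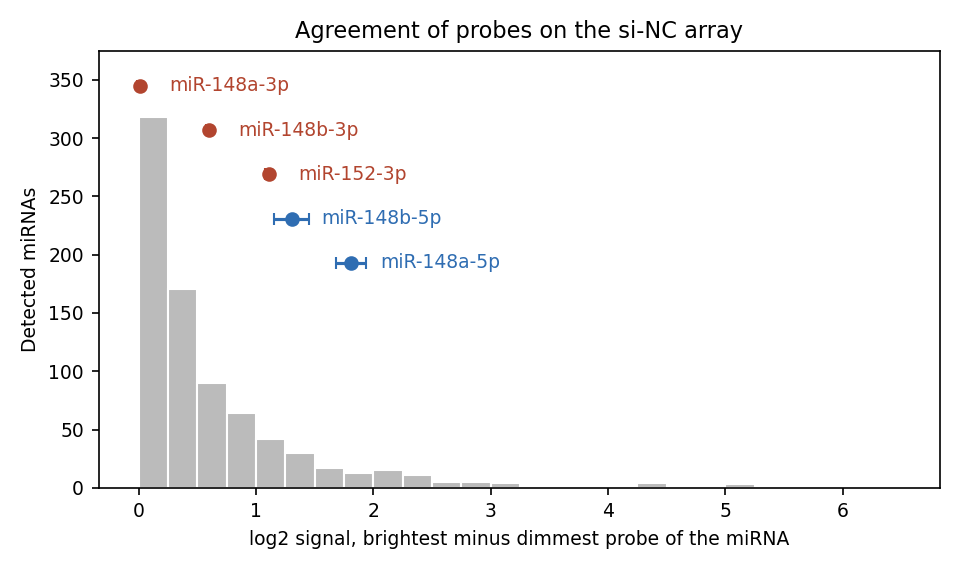
Histogram of the log2 difference between the brightest and the dimmest probe over 800 detected miRNAs on the si-NC array (grey, number of miRNAs), with 5 members as points at their own values (3p red, 5p blue); bars are the SE from replicate spots and the height of the points has no meaning. Values run from 0.012 for miR-148a-3p to 1.81 for miR-148a-5p.

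The order of the probes was looked at after these values had been seen. In both arms read by 4 probes the mean signal rose with each probe number, from 6.24 through 15.8 and 20.3 to 55.6 for miR-148a-5p and from 3.28 through 16.3 and 27.0 to 40.2 for miR-148b-5p. The same rise was found in 53.6% of the 125 detected miRNAs with 4 probes and at least 1 of them bright enough, so it was common on the array. Of the miRNAs with 2 probes 65.1% rose from the first to the second, and of the guide arms only miR-152-3p did. What sets the probes of a miRNA apart is not given in the sources used here, and the cause of the order was not tested.

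Replicate spots set the error within a probe. The coefficient of variation (CV) ran from 2.50% to 5.60% over the 6 probes of the guide arms, with a median of 4.29%, and from 4.26% to 19.1% over the 6 passenger probes that were bright enough, with a median of 13.7%. On the whole array the median CV was 5.68% for probes with a mean signal of 100 to 1000, 10.2% for those of 20 to 100, 3.76% for those of 1000 and over, and 15.8% for those under 20. The median over the 12 family probes was 4.96%.

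Levels were also set on a log2 scale with 0 at a signal of 143, which is the 75th percentile taken over the spots of detected miRNAs. There miR-148a-3p lay at 4.62 ± 0.06 (SD over replicate spots about their probe, over 19 or 20 spots a member), miR-148b-3p at 1.67 ± 0.05 and miR-152-3p at 0.40 ± 0.07. Of the passenger arms, miR-148a-5p lay at -2.96 ± 0.80, miR-148b-5p at -3.20 ± 0.39 and miR-152-5p at -3.99 ± 0.37. As means over their probes, the guide arms lay above that percentile and the passenger arms below it. For miR-152-3p this held for the second probe only, with spots of 248 to 294. All spots of its first probe, 121 to 137, lay under 143. The levels of miR-148a-5p and miR-148b-5p differed by less than their spread.

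The family was last set beside other miRNAs known to target DNA methyltransferases. With the 3 guide arms that list had 12 miRNAs, of which 10 were detected. Of the 9 outside the family 7 were detected, where 44.4% of all miRNAs on the array were. The list was chosen with earlier results of these data known, and whether its miRNAs are detected more often than others was not tested. The miR-29 family, known to repress DNMT3A and DNMT3B, had signals of 10166 ± 723 for miR-29a-3p, 20514 ± 1464 for miR-29b-3p and 7126 ± 505 for miR-29c-3p. Signals of 694 ± 49.4 for miR-101-3p, 265 ± 18.8 for miR-140-5p, 146 ± 10.4 for miR-185-5p and 123 ± 8.75 for miR-126-3p lay in the range spanned by the guide arms of the family. The 2 not detected were miR-143-3p and miR-342-3p, with 0 of 20 spots well above background each.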

How the data were processed

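MiRNA levels were measured in 1 si-NC sample of DLD-1 cells on an Agilent array of 1 colour. The labels give end labelling of RNA by T4 RNA ligase with a Cyanine 3 dye, while the methods of the study name a cDNA kit. Per the file headers, the authors read spot intensity in Feature Extraction (version 11.0.1.1), and the design build of the array was hg19. The deposited intensity is background-subtracted and not normalized between arrays. Detection, outlier and background flags and probe and gene totals with their errors come from the same software. The authors also deposited log2 values, quantile normalized in GeneSpring.

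Control spots were left out, and outlier spots (4.51% of miRNA spots) were left out of probe means. Hairpins were matched by name where both arms were on the array. Calculations were run in Python 3.11.15 (numpy 2.4.6, pandas 2.3.3), and normexp (offset 50) in limma 3.58.1 under R 4.3.3. In simulated spots on this layout, a CV of 10% came back as 9.51% over 5893 probes, a probe difference of 2 as 1.999 over 200 miRNAs and an arm difference of 3 as 3.002 over 172 hairpins. The simulated spots were all bright, with noise in proportion to signal, no background and no outliers. They therefore check the calculation only and say nothing of signals as dim as the 5p arms. The simulated arm difference was taken from mean probe signals and not from total gene signal.

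The members and lists were chosen with earlier results of these data known. The text names the 6 members, miRNAs sharing their seed, and, chosen after their values were seen, members of the methyltransferase list. Detected markers of other tissues are also named. With 1 array no miRNA could be named for a similar pattern over samples. Sequences and gene names came from RefSeq (GRCh38.p14). The alternatives were 6 detection rules, other references, normexp, outlier spots kept, the brightest probe, the median of spots, no filter on dim probes and the deposited values. The single array limits the precision.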

Additional observations from a re-analysis of the deposited data

How the results depend on the processing

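Over 20 results, 94 alternative values were computed, of which 48 stayed within the technical error of the result (counts within 1.5 times), 45 moved and 1 changed sign. For levels that error was the SD over spots, for arm differences the carried-through scanner error and for probe differences the SE. These are limits of unlike width, and a small move can pass the SE. Of the 94 values, 65 belong to the 14 results on single miRNAs or hairpins. The others are counts and medians over the same members or their probes, so some values recur and they are not independent. Of the 6 detection rules, 3 left 5 members and 2 hairpins with both arms (37.9%, 31.2% and 33.3% of all miRNAs, and 178, 119 and 135 of 810 hairpins), 2 left 6 and 3 (44.4% and 232), and the rule on every probe left 3 members and 0 hairpins (29.4% and 94). The rules on 3 times the error and on the deposited floor follow from how detection was set. The median level of the members, -1.28, changed sign to 1.16 when all miRNA spots set the percentile, whose reference signal is then 26.3 in place of 143, and moved to -0.50 with normexp and -0.20 with the brightest probe only. The median arm difference, 4.49, which is the value of miR-152 with its 5p arm at background, moved to 4.91 with the mean log2 spot signal, 4.88 with the brightest probes, where miR-148a and miR-148b fell to 5.98 and 3.79, and 2.71 with normexp, which adds its offset to both arms. In all 5 alternatives the 3p arm stayed the brighter in each hairpin. The median over members of the probe difference, 1.11, fell to 0.52 under normexp. It was 0.85 once dim probes were let in, since miR-152-5p joined at 0.12, while no other member came down and the 5p arms of miR-148a and miR-148b rose to 3.15 and 3.62. The median CV rose from 4.96% to 10.1% with no filter. The change of reference from 143 to 26.3 raised the level of every member by the same amount. The cause of the remaining moves was not tested. Low signal over background limits the 5p arms. No paired analysis was possible because there is 1 sample.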
